A study of Mus musculus with 23 samples.

Results

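The genes described here are 10 components of the insulin-like growth factor (Igf) axis and its imprinted neighbour, in differentiating C2C12 cells, an established mouse myoblast line. They are the ligands Igf1 and Igf2, the long non-coding RNA H19, the receptors Igf1r and Igf2r, and the binding proteins Igfbp2, Igfbp3, Igfbp4, Igfbp5 and Igfbp6. They were taken by symbol, as 10 of the 32793 gene rows in the count table, and all 10 were among the 14187 genes tested. Poly(A) RNA was sequenced from control cells (called WT here, as in the sample names) and from Runx1KO cells. Runx1 is a transcription factor of the Runt family. Day 0 stands for cells kept in 20% fetal bovine serum, a growth medium, and day 1, day 3 and day 6 for cells switched to differentiation medium containing 2% horse serum. Each genotype and day had 3 libraries, except WT at day 0, of which 2 were analysed. In the series design the latest harvest is at 5 days, but the sample names call it day 6, and that name is kept.

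The labels do not say whether the Runx1KO line is 1 clone, how the gene was disrupted, or whether libraries of a group came from separate cultures, so p-values measure only the spread between these libraries, which may be technical. Runx1 mRNA was not reduced in the KO-labelled libraries and exceeded the WT level at every time point. Mean levels in WT and KO respectively were 20.6 against 29.0 TPM (transcript abundance scaled for gene length and library size) at day 0. At day 6 they were 42.6 against 83.9 TPM. The mRNA level alone does not tell whether the function of the gene was lost. Groups are called by their labels throughout. Total counts ran from 22197606 to 23684077 per library. All 6 myoblast markers were at 1 TPM or more in every group. They summed to 1063 to 1077 TPM in WT and 1417 to 1468 TPM in KO at day 0, 1368 to 1423 and 1294 to 1572 at day 1, 1359 to 1449 and 1758 to 1907 at day 3, and 1203 to 1439 and 1884 to 2009 at day 6, so the genotypes overlapped at day 1 alone. By contrast, the adipocyte genes Adipoq and Cidec and the macrophage gene Adgre1 were at 0 in every library. The 4 macrophage genes summed to 15.5 to 17.2 TPM in KO and 5.14 to 9.14 TPM in WT at day 6, and to between 0.93 and 3.48 TPM in the other groups. Only 1 of the 4 was at 1 TPM or more in KO at day 6, and 2 were in WT at day 6. The highest value of a single macrophage gene in any library was 17.02 TPM, so the KO sum at day 6 does not describe the list as a whole. The 4 osteoblast genes summed to between 14.85 and 25.2 TPM, with 1 of the 4 at 1 TPM or more in each group, and the adipocyte, endothelial and epithelial lists to at most 1.88, 0.55 and 0.87 TPM. The part of these lists in the results below was not tested. KO day 1 replicate 2 stood apart from its replicates, with a mean SD of log2 differences of 0.579 against 0.370 to 0.486 for the other libraries.

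Igf1 and Igf2 are secreted peptides that signal through the receptor tyrosine kinase Igf1r, and Igf2 made by myoblasts themselves is a known promoter of their differentiation. Igf2r, the cation-independent mannose 6-phosphate receptor, carries Igf2 to lysosomes for degradation. The binding proteins hold both ligands outside the cell and can either restrain or present them. H19 and Igf2 are oppositely imprinted neighbours that share enhancers, H19 being expressed from the maternal and Igf2 from the paternal copy, and both are known to rise during muscle differentiation.

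In the RefSeq annotation of GRCm38 (mm10), H19 lies on chromosome 7 at 142575530 to 142578146 and Igf2 at 142650768 to 142666816, with 72621 bases between them. Igfbp2 (chromosome 1, 72824480 to 72852474) and Igfbp5 (chromosome 1, 72858065 to 72874865) are also neighbours, 5590 bases apart. Igfbp3 (7206086 to 7215498) and Igfbp4 (99040005 to 99052655) are both on chromosome 11, far from each other. The remaining members are on chromosome 10 (Igf1), chromosome 7 (Igf1r), chromosome 17 (Igf2r) and chromosome 15 (Igfbp6).

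H19 is also the host transcript of miR-675, whose arms are shown because they lie within the H19 RNA described below. They are printed 5′ to 3′ from RefSeq (GRCm38.p6), with the seed, bases 2 to 8, in capitals. The arms have different seeds. The precursor Mir675 itself was at 0 in these poly(A) libraries, which do not measure mature miRNAs.
mmu-miR-675-5p, minus strand of chr7:142577112-142577133: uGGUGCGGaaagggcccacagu
mmu-miR-675-3p, minus strand of chr7:142577078-142577099: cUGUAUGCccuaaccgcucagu

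The sequences upstream of 4 members are shown. Igfbp4, Igfbp3 and Igfbp5 differed between genotypes on every day. So did Igfbp6, whose window carries no Runx core and is not printed, and H19, for which no window was found. The Igf2 window is the 1 of 4 that carries a Runx core and was picked for it. The 4 printed windows therefore hold the only 2 Runx cores found among the 13 windows of the members. Each is the RefSeq window of 250 bases before an annotated start (GRCm38.p6), shortened where GENCODE vM21 exons overlap it. Capitals mark TGTGGT or TGCGGT (the Runx core, on either strand), CANNTG (the E-box, bound by myogenic factors) and TATAAA on the printed strand. The Igfbp4 and Igfbp3 windows overlap no annotated gene in GENCODE vM21, although both, like the Igf2 window, lie within the RefSeq spans given above for their genes, which reach further upstream, and the Igfbp5 and Igf2 windows are printed without the 19 and 34 bases that lie in exons.
Igfbp4, plus strand of chr11:99040994-99041243: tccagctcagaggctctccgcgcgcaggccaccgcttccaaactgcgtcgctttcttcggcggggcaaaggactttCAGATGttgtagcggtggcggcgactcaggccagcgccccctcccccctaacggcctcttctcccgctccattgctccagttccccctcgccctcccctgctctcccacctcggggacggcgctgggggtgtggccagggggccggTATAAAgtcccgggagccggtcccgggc
Igfbp3, minus strand of chr11:7213924-7214173: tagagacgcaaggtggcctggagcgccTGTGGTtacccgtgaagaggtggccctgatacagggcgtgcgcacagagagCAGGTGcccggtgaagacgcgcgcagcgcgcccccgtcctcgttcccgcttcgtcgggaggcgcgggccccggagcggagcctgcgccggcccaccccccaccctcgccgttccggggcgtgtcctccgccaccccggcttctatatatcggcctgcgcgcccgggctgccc
Igfbp5, minus strand of chr1:72874885-72875115: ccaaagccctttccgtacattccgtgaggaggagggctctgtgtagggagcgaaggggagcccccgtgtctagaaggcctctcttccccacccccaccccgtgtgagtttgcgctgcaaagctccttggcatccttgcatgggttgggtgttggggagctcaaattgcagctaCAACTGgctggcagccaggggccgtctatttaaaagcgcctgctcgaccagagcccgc
Igf2, minus strand of chr7:142661306-142661521: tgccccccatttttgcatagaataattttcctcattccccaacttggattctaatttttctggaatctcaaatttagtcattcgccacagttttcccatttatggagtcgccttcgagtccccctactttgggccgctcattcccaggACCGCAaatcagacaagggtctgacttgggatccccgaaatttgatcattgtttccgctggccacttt

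RefSeq windows were found for 9 of the 10 members, 13 windows in all, each 250 bases before and 50 after a start. A Runx core was present in 2 of the 13, at position -223 of Igfbp3 and -102 of the printed Igf2 window, with none in the other 3 Igf2 windows, against 22.4% of all 32851 windows of that length. An E-box was present in 10 of the 13, against 72.3% of all windows. The Igfbp4 window carried an E-box at -174 and TATAAA at -28, and the Igfbp5 window an E-box at -77. These matches describe the letters only, and none was tested for binding.

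Igf2 mRNA was near absent in growth medium and rose with differentiation, to levels 9.83-fold higher in the libraries labelled KO than in WT by day 6. At day 0 it was 0.05 and 0 TPM in the WT libraries and 0.02, 0.04 and 0.15 TPM in the KO libraries, from 1 and 6 reads in all. At day 1 it was 0.11, 0.21 and 0.04 TPM in WT and 0.10, 0.27 and 0.49 TPM in KO, so the groups overlapped. By day 3 the WT libraries stood at 1.89, 1.89 and 3.06 TPM and the KO libraries at 13.6, 10.7 and 8.28 TPM. At day 6 the WT values of 2.34, 2.16 and 3.04 TPM were close to those of day 3, and the KO values of 17.8, 22.4 and 20.6 TPM lay above all of theirs from day 3.

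The KO to WT difference in Igf2 was 2.43 ± 0.190 log2 (SE) at day 3, with an adjusted p of 5.42e-10 in edgeR's quasi-likelihood test, and 3.30 ± 0.190 log2 at day 6, with an adjusted p of 1.63e-12. On log2(TPM + 1) the day 3 and day 6 differences were 1.85 and 2.60. At day 1 the difference of 1.33 ± 0.566 log2 did not pass the threshold of 0.05 (adjusted p = 0.0624), and no fold is given for day 0, where both groups were at the floor of 3 counts per library. Against its own day 0, where WT replicate 1 held 1 read and replicate 2 none, Igf2 was 149 times higher in WT at day 3 (95% counting interval 26.6 to 5930) and 151 times at day 6 (26.8 to 5982), and 198 times (90.6 to 540) and 364 times (167 to 992) higher in KO. These intervals cover counting error only, and the fitted WT day 3 value ranged from 6.09 to 9.27 log2 with 1 library left out. From day 3 to day 6 Igf2 rose by 0.88 ± 0.165 log2 in KO (adjusted p = 0.000152), and the WT change was 0.01 ± 0.211 log2 (adjusted p = 0.987). Igf2os overlaps Igf2 on the other strand, and whether the counting used strand is not given in the sources used here, so their reads cannot be told apart; Igf2os itself was at most 0.25 TPM in any library.

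Igf1 went the other way. It was at 0.01 and 0 TPM in WT and 0, 0 and 0.01 TPM in KO at day 0. At day 1 WT had 0.25, 0.35 and 0.37 TPM and KO had 0.08, 0.12 and 0.05 TPM. At day 3 the WT libraries were at 1.07, 0.90 and 0.96 TPM and the KO libraries at 0.32, 0.19 and 0.06 TPM. At day 6 they were at 1.40, 1.18 and 1.49 TPM in WT and 0.73, 0.37 and 0.15 TPM in KO. From day 1 on no KO library reached the lowest WT library of its day. The KO libraries also spread widely among themselves.

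Igf1 fell in KO against WT by 2.05 ± 0.474 log2 at day 1, 2.07 ± 0.379 log2 at day 3 and 1.91 ± 0.350 log2 at day 6, with adjusted p of 0.00129, 0.000108 and 0.000109. The day 1 difference rests on 22 reads in all KO day 1 libraries against 95 in WT. Without KO day 1 replicate 2 the day 1 difference was -2.58 log2. On log2(TPM + 1), which shrinks the differences of low genes, the 3 values were -0.29, -0.74 and -0.75. Igf1 rose over time in both genotypes. Each had 1 read in all at day 0, in WT replicate 1 and in KO replicate 3. Against that read Igf1 was 230 times higher in WT at day 6 (counting interval 41.1 to 9124) and 89.7 times higher in KO (15.7 to 3580). These intervals cover counting error only, so the folds rest on a single library per genotype. The ratio of Igf2 to Igf1 TPM was 1.85 ± 0.185 (SD, n = 3) in WT at day 6. In KO it was 74.0 ± 57.6 (SD, n = 3), with the lowest library at 24.4. All 3 KO libraries exceeded all 3 WT libraries, and the exact permutation test gave its smallest possible p of 0.1.

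H19 stood far above WT in the KO-labelled libraries at every time point, and from day 3 it was the most abundant member there. At day 0 it was 72.2 and 68.1 TPM in WT and 991, 1006 and 928 TPM in KO. At day 1 WT had 422, 426 and 526 TPM and KO had 2903, 2826 and 2930 TPM. At day 3 WT had 1870, 1862 and 2106 TPM and KO had 10922, 12063 and 11008 TPM. At day 6 WT had 1984, 1985 and 2066 TPM and KO had 10753, 12208 and 11936 TPM. On no day did the groups overlap. The day 0 KO libraries already exceeded the day 1 WT libraries, and the day 1 KO libraries exceeded every WT library of the series.

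The KO to WT difference in H19 was 3.86 ± 0.125 log2 (14.5-fold) at day 0, with an adjusted p of 1.74e-16. It was 2.69 ± 0.0994 log2 at day 1, 2.69 ± 0.0993 log2 at day 3 and 2.66 ± 0.0992 log2 at day 6 (adjusted p 1.24e-15, 1.22e-15 and 5.94e-16), or 6.47, 6.46 and 6.33-fold. H19 rose by 4.66 ± 0.131 log2 in WT and 3.47 ± 0.103 log2 in KO from day 0 to day 6. The rise was smaller in KO, with an interaction term of -1.197 ± 0.143 log2 ( adjusted p = 2.4e-06). From day 3 to day 6 the change was 0.04 ± 0.0933 log2 in WT and 0.01 ± 0.0932 log2 in KO (adjusted p 0.861 and 0.95).

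The read share of H19 shows its scale. It took 0.00935% and 0.00958% of all counts in the WT day 0 libraries and between 1.36% and 1.61% in the KO libraries of day 3 and day 6. By count it ranked 2314 and 2317 among all genes in WT at day 0, between 23 and 29 in WT at days 3 and 6, and 1 or 2 in all 6 KO libraries of those days. The H19 to Igf2 TPM ratio was 816 ± 123 (SD, n = 3) in WT and 576 ± 29.7 (SD, n = 3) in KO at day 6, a log2 difference of -0.49 with an exact permutation p of 0.1. At day 3 the ratio was 888 in WT and 1086 in KO (exact permutation p = 0.4). With 3 libraries against 3, this test cannot go below 0.1.

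Markers of differentiated myotubes moved with these differences, and in bulk RNA fewer cells of a type and less RNA per cell cannot be told apart. The 8 myotube genes, among them Myog, Ckm and Acta1, summed to 2.58 to 2.62 TPM in WT and 3.52 to 3.90 TPM in KO at day 0. They summed to 2434 to 2626 TPM in WT and 3898 to 7028 TPM in KO at day 3, and to 1982 to 2472 TPM in WT and 11614 to 13588 TPM in KO at day 6. The H19 difference at day 0 was 14.5-fold. None of the 8 myotube genes passed the test between genotypes at day 0, but only 1 of them in WT and 2 in KO were at 1 TPM or more. At such low levels the test could miss a difference in these genes. At day 1 they summed to 58.6 to 107 TPM in WT and 166 to 217 TPM in KO, and 5 of the 8 were higher and 1 lower in KO. In KO, 7 of them were higher at day 3 and all 8 at day 6. Of all genes tested, 22.9%, 24.0% and 22.0% were higher in KO at day 1, 3 and 6. Their part in the Igf2 and H19 differences was not tested. Of 9 listed neighbours of Igf2 and H19, 6 were tested. None of the 6 was lower in KO on any day, against 10.1%, 19.2%, 19.2% and 20.8% of all genes at day 0, 1, 3 and 6. On those days 1, 1, 3 and 2 were higher, against 7.36%, 22.9%, 24.0% and 22.0% of all genes. Tnnt3 is both a listed neighbour and 1 of the 8 myotube genes, so the 2 lists are not separate. Ins2, next to Igf2, was 1.17 ± 0.339 log2 higher in KO at day 3 (adjusted p = 0.00796), from at most 48 reads in a library.

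**Figure D1:**
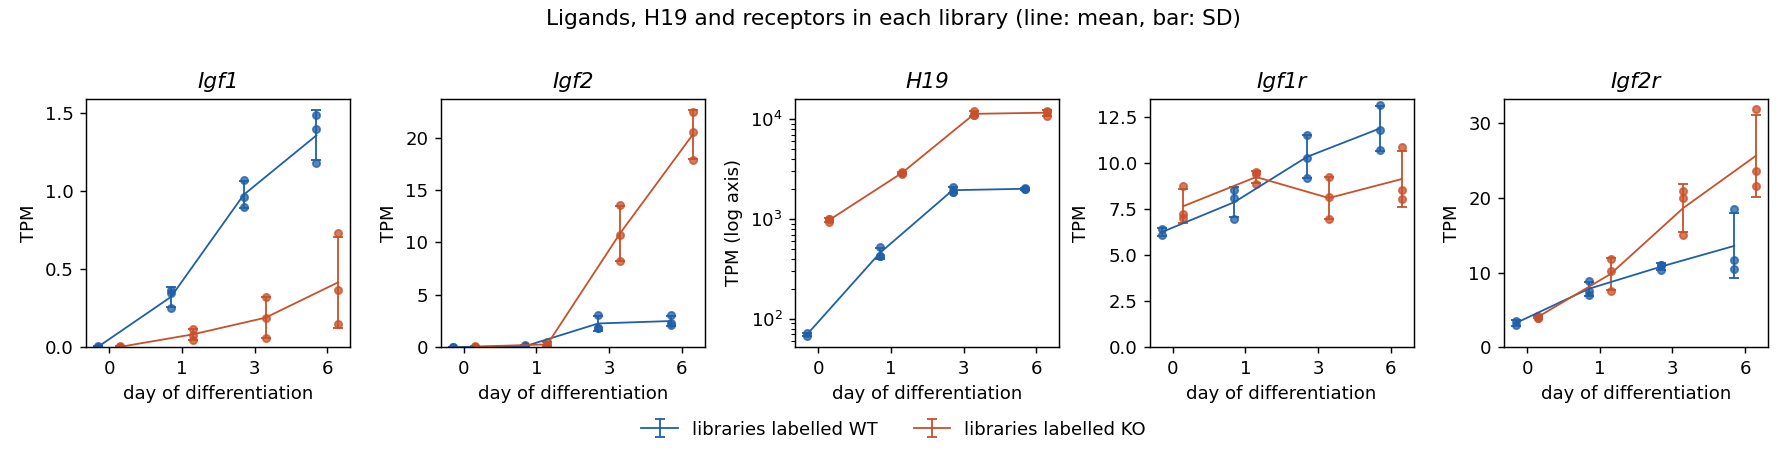
TPM of the ligands, H19 and the receptors in each library (points) by day, with days evenly spaced, the mean as a line and the SD as a bar; H19 is on a log axis. At day 6 the KO libraries lie at 17.8 to 22.4 TPM for Igf2 and 10753 to 12208 TPM for H19, above all WT libraries, and at 0.15 to 0.73 TPM for Igf1, below them.

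Of the receptors, Igf2r rose during differentiation in both genotypes and was higher in the libraries labelled KO at day 3 and day 6. Its change since day 0 did not differ past the threshold between genotypes, with interaction terms of -0.02 ± 0.231 log2 at day 1, 0.55 ± 0.229 at day 3 and 0.68 ± 0.228 at day 6 (adjusted p 0.992, 0.138 and 0.0524). The day 6 term passed in 6 of 33 alternatives, among them no filter (0.00969) and DESeq2 (0.0347). Igf2r was 3.58 and 2.95 TPM in WT and 4.23, 3.99 and 3.99 TPM in KO at day 0. At day 1 WT had 8.91, 7.55 and 7.02 TPM and KO had 7.47, 11.8 and 10.2 TPM, so the groups overlapped. At day 3 WT had 10.3, 11.1 and 11.0 TPM and KO had 20.9, 20.0 and 14.98 TPM. At day 6 WT had 11.7, 10.5 and 18.5 TPM and KO had 31.8, 23.5 and 21.5 TPM. The groups did not overlap on either day, although the highest WT library of day 6 exceeded the lowest KO library of day 3. The difference was 0.93 ± 0.146 log2 at day 3 (adjusted p = 1.64e-05) and 1.06 ± 0.145 log2 at day 6 (adjusted p = 2.6e-06), while 0.38 ± 0.179 log2 at day 0 and 0.36 ± 0.148 log2 at day 1 did not pass (adjusted p 0.165 and 0.0537). The day 0 difference passed with only the groups compared (0.00841), and the day 1 difference in 6 of 33 alternatives, among them no filter (0.0237). Without KO day 1 replicate 2 the day 1 difference was 0.23 log2 (adjusted p = 0.283). Airn overlaps Igf2r on the other strand, and it was at most 5.41 TPM in any library.

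Igf1r, the signalling receptor, lay between 6.10 and 13.2 TPM in all 23 libraries. At day 0 it was 6.43 and 6.10 TPM in WT and 8.76, 7.27 and 7.01 TPM in KO, a difference of 0.34 ± 0.116 log2 that passed narrowly (adjusted p = 0.0454). At day 1 it was 8.14, 8.55 and 7.0 TPM in WT and 8.88, 9.51 and 9.40 TPM in KO. At day 3 it was 9.22, 10.3 and 11.5 TPM in WT and 8.16, 9.24 and 6.96 TPM in KO. At day 6 it was 11.8, 10.7 and 13.2 TPM in WT and 10.9, 8.53 and 8.05 TPM in KO, and the groups overlapped. The day 3 and day 6 differences of -0.20 ± 0.102 and -0.24 ± 0.101 log2 did not pass (adjusted p 0.119 and 0.0643). Both passed on log2(TPM + 1) and log2(TPM + 0.1), with -0.32 and -0.35 log2 at day 3 (adjusted p 0.0426 each) and -0.35 and -0.38 at day 6 (0.0249 and 0.0269). Over 33 alternatives the day 3 difference passed in 3 and the day 6 difference in 10. At day 1 the difference was 0.28 ± 0.102 log2 (adjusted p = 0.0297). The day 0 call was lost without WT day 0 replicate 1 or 2, KO day 0 replicate 1 or 2, KO day 3 replicate 1 or KO day 6 replicate 2 (adjusted p 0.0518 to 0.199), and with library size alone (0.132), log2(TPM + 1) (0.267) or log2(TPM + 0.1) (0.24). The day 1 call was lost without any of the 3 KO day 1 libraries or WT day 1 replicate 1 or 3 (adjusted p 0.0517 to 0.15). It was also lost with library size alone (0.0839), a mean count of at least 50 (0.0676), log2(TPM + 1) (0.191), log2(TPM + 0.1) (0.186) or only the groups compared (0.0825).

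The binding proteins split by genotype: Igfbp3, Igfbp4 and Igfbp6 were lower in the libraries labelled KO on every day, Igfbp5 was higher on every day, and Igfbp2 changed sides during the course. Igfbp4 differed most. At day 0 it was 39.4 and 35.6 TPM in WT and 0.32, 0.36 and 0.47 TPM in KO, from 9, 10 and 13 reads against 1074 and 971. At day 1 WT had 118, 116 and 107 TPM and KO had 3.78, 3.25 and 4.42 TPM. At day 3 WT had 115, 92.6 and 88.5 TPM and KO had 7.72, 9.42 and 5.90 TPM. At day 6 WT had 134, 140 and 152 TPM and KO had 9.45, 9.28 and 7.70 TPM. No KO library of any day reached the lowest WT library of the series.

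Igfbp4, which restrains ligand action until it is cleaved, was lower in KO by 92.7-fold at day 0 (-6.53 ± 0.204 log2, adjusted p = 1.29e-16). On log2(TPM + 1) that difference was -4.80. The difference was -4.85 ± 0.141 log2 at day 1, -3.54 ± 0.129 log2 at day 3 and -3.89 ± 0.129 log2 at day 6 (adjusted p 1.4e-17, 1.22e-15 and 1.27e-16). Igfbp4 rose from day 0 to day 6 in both genotypes, by 1.74 ± 0.132 log2 in WT and 4.39 ± 0.222 log2 in KO. The rise was larger in KO by 2.65 ± 0.281 log2 (interaction term, adjusted p = 4.33e-07). On log2(TPM + 1) the KO rise was 2.82 and the interaction term 0.93.

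Igfbp3, the main carrier of Igfs in serum, was 18.9 and 16.7 TPM in WT and 5.65, 6.47 and 4.83 TPM in KO at day 0. At day 1 it was 25.3, 28.6 and 24.9 TPM in WT and 9.65, 12.3 and 9.28 TPM in KO. It was highest in WT at day 3, with 41.1, 38.6 and 38.0 TPM, when KO had 16.3, 12.5 and 14.9 TPM. At day 6 it was 35.5, 28.2 and 31.0 TPM in WT and 13.1, 13.7 and 13.2 TPM in KO. Its KO to WT difference was -1.59 ± 0.135 log2 at day 0, -1.30 ± 0.117 at day 1, -1.28 ± 0.114 at day 3 and -1.11 ± 0.115 at day 6 (adjusted p from 4.42e-09 to 3.39e-08).

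Igfbp6, which prefers Igf2, was 180 and 166 TPM in WT and 106, 102 and 92.2 TPM in KO at day 0. At day 1 it was 253, 246 and 236 TPM in WT and 165, 121 and 162 TPM in KO, and at day 3 226, 232 and 234 TPM in WT and 109, 127 and 139 TPM in KO. At day 6 it was 223, 273 and 238 TPM in WT and 131, 117 and 118 TPM in KO. Its differences lay between -0.89 ± 0.122 log2 at day 6 and -0.67 ± 0.122 log2 at day 1, and each passed the test (adjusted p 2.81e-06 to 0.000401). Like Igfbp3, it had no overlapping groups on any day.

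Igfbp5, an early gene of myoblast differentiation, peaked at day 1 in both genotypes. It was 137 and 98.8 TPM in WT and 375, 319 and 288 TPM in KO at day 0. At day 1 WT had 753, 613 and 643 TPM and KO had 1000, 1022 and 1109 TPM. Both then declined: at day 3 WT had 395, 418 and 367 TPM and KO had 708, 720 and 700.3 TPM. At day 6 WT had 289, 284 and 481 TPM and KO had 677, 554 and 487 TPM. The highest WT and lowest KO library of day 6 were close but did not cross. The KO excess was 1.54 ± 0.151 log2 at day 0, 0.68 ± 0.128 at day 1, 1.00 ± 0.129 at day 3 and 0.85 ± 0.128 at day 6 (adjusted p 6.19e-08, 0.000169, 1.11e-06 and 9.81e-06).

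Igfbp2, the most abundant binding-protein mRNA, started higher and ended lower in KO. At day 0 it was 2484 and 2353 TPM in WT and 3100, 3118 and 3007 TPM in KO. At day 1 the groups overlapped, with 3127, 3185 and 3001 TPM in WT and 3308, 2805 and 3413 TPM in KO. At day 3 WT had 2532, 2360 and 2465 TPM and KO had 1461, 1868 and 1896 TPM. At day 6 WT had 1630, 2180 and 1922 TPM and KO had 867, 883 and 919 TPM. From day 3 on every KO library was below every WT library. The difference was -0.37 ± 0.117 log2 at day 3 (adjusted p = 0.0134) and -0.97 ± 0.118 log2 at day 6 (adjusted p = 4.87e-07), and 0.05 ± 0.117 log2 at day 1 did not pass (adjusted p = 0.778). Without KO day 1 replicate 2 the day 1 difference was 0.18 log2 (adjusted p = 0.155), and the groups did not overlap. Without KO day 3 replicate 1 the day 3 difference was -0.27 log2 and did not pass (adjusted p = 0.0949). The day 0 difference of 0.38 ± 0.132 log2 (adjusted p = 0.0466) did not pass without any 1 of 10 libraries: WT day 0 replicates 1 and 2, KO day 0 replicates 2 and 3, WT day 1 replicate 3, WT day 3 replicates 1 and 3, KO day 3 replicate 2 and KO day 6 replicates 2 and 3 (adjusted p 0.0517 to 0.199). Igfbp2 fell from day 0 to day 6 by 0.54 ± 0.129 log2 in WT and 1.90 ± 0.121 log2 in KO, a difference between genotypes of -1.35 ± 0.178 log2 (interaction term, adjusted p = 8.81e-06).

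**Figure D2:**
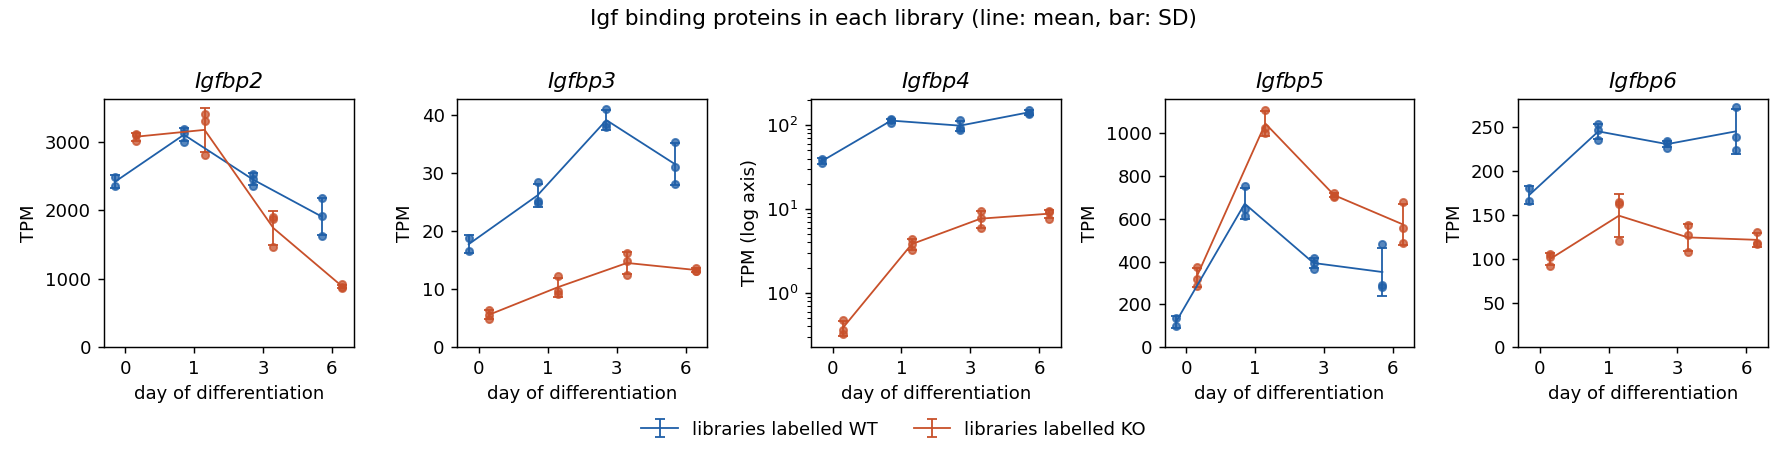
TPM of the 5 binding proteins in each library (points) by day, with days evenly spaced, the mean as a line and the SD as a bar; Igfbp4 is on a log axis. The KO libraries lie below WT for Igfbp3, Igfbp4 and Igfbp6 on all days and above WT for Igfbp5, and the lines for Igfbp2 cross between day 1 and day 3.

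Together the 5 binding-protein mRNAs made up 2765 ± 134 TPM (SD, n = 2) in WT and 3509 ± 102 TPM (SD, n = 3) in KO at day 0, and 2681 ± 322 and 1607 ± 80.5 TPM (SD, n = 3 each) at day 6. The log2 difference was 0.34 at day 0, 0.07 at day 1, -0.31 at day 3 and -0.73 at day 6, with exact permutation p of 0.2, 0.5, 0.1 and 0.1. On summed CPM, which is not corrected for gene length, the day 3 and day 6 differences were 0.30 and 0.04, so the direction rests on the scale. Igfbp2 supplied 87.5% of the summed TPM in WT and 87.7% in KO at day 0, and 71.2% and 55.5% at day 6. Igfbp5 went from 4.25% to 13.1% in WT and from 9.32% to 35.5% in KO. Igfbp4 supplied 5.34% in WT and 0.548% in KO at day 6.

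**Figure D3:**
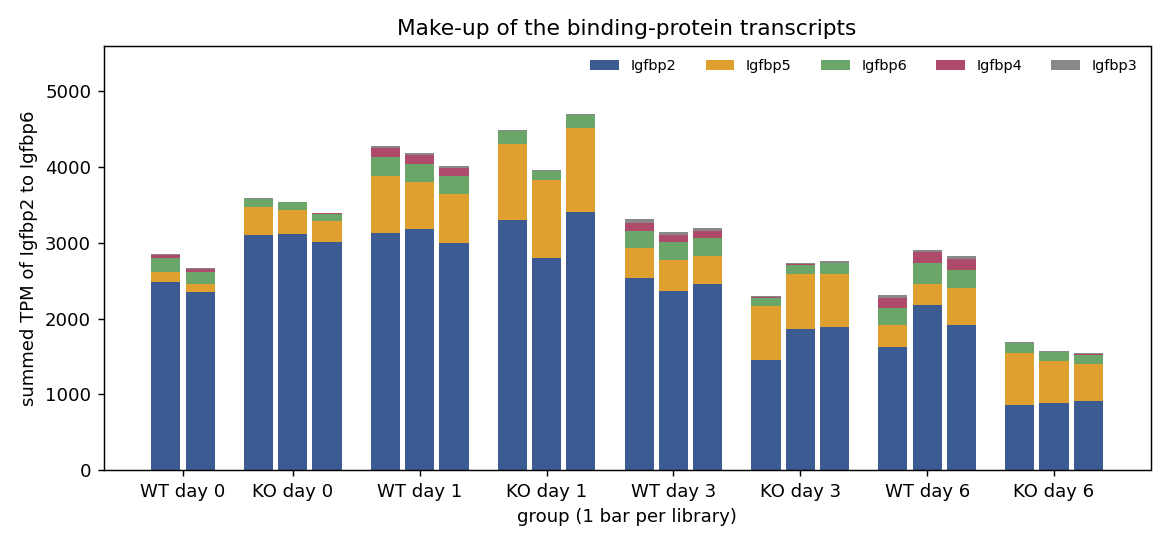
Summed TPM of Igfbp2 to Igfbp6, 1 bar per library, stacked by gene. Igfbp2 fills 87.5% of the WT and 87.7% of the KO bars at day 0 on average and 71.2% and 55.5% at day 6, and the Igfbp5 portion reaches 35.5% in KO at day 6.

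Counting all 10 members between genotypes, 4 were higher and 3 lower in KO at day 0, 3 higher and 4 lower at day 1, 4 higher and 5 lower at day 3, and 4 higher and 5 lower at day 6. Of all 14187 genes, 17.5% passed the same test at day 0 (7.36% higher, 10.1% lower), 42.2% at day 1 (22.9% and 19.2%), 43.2% at day 3 (24.0% and 19.2%) and 42.9% at day 6 (22.0% and 20.8%). The day 0 count over all genes was 2479, and 1265 or 1499 without WT day 0 replicate 1 or 2. The balance of directions rests on the scale: on log2(TPM + 1), 650 genes were higher and 1427 lower in KO at day 0, 2252 and 2946 at day 1, 1984 and 3806 at day 3, and 2139 and 3988 at day 6. The median log2 difference of the members was 0.36, 0.16, -0.28 and -0.56, against medians of -0.00105, 0.03, 0.04 and 0.00371 over all genes tested.

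Most members rose with differentiation in both genotypes. In WT, 7 members were higher and none lower than at day 0 on day 1, 8 and none on day 3, and 9 and 1 (Igfbp2) on day 6. Of all genes, 54.7%, 58.2% and 63.6% passed in either direction (on day 6, 32.6% higher and 31.1% lower). That was 3848, 4137 and 4620 genes higher and 3912, 4119 and 4409 lower on day 1, 3 and 6. On log2(TPM + 1) the balance shifted, with 4429, 5034 and 5584 higher and 2876, 2852 and 3203 lower. In KO, 8 were higher and none lower on day 1, 7 and 1 on day 3, and 7 and 1 on day 6. Of all genes, 52.3%, 57.6% and 70.0% passed in either direction (on day 6, 36.6% higher and 33.5% lower). That was 3852 higher and 3571 lower on day 1, and 4309 and 3860 on day 3. On log2(TPM + 1) the KO day 1 counts were 4525 higher and 2412 lower. These comparisons share the day 0 libraries of their genotype. Without KO day 1 replicate 2, 6 in place of 7 members passed between genotypes at day 1, and 8 in place of 7 in WT and 7 in place of 8 in KO from day 0 to day 1. Without WT day 0 replicate 2 the WT day 1 count was 5, Igfbp3 and Igfbp6 being lost (adjusted p 0.0777 and 0.136). In KO the day 1 call of Igf2 was lost without KO day 0 replicate 1 (0.0596) or KO day 1 replicate 2 (0.0654), and on log2(TPM + 1) those of Igf1 and Igf2 were lost (0.423 and 0.192). Igf2r rose from day 0 to day 6 by 1.85 ± 0.180 log2 in WT and 2.53 ± 0.155 in KO, Igfbp3 by 0.65 ± 0.128 and 1.13 ± 0.126, and Igfbp5 by 1.38 ± 0.150 and 0.69 ± 0.128. Igf1r rose by 0.70 ± 0.117 log2 in WT (adjusted p = 1.42e-05), and its KO change was 0.13 ± 0.102 log2 (adjusted p = 0.271). The interaction term for Igf1r at day 6 was -0.58 ± 0.154 log2 (adjusted p = 0.0133), and without WT day 0 replicate 2 it was -0.57 and did not pass (adjusted p = 0.0633). Igfbp6 rose by 0.33 ± 0.136 log2 in WT (adjusted p = 0.0404), which did not pass without WT day 0 replicate 1 or 2 or WT day 6 replicate 2 (adjusted p 0.0619 to 0.254), and its KO change was 0.17 ± 0.123 log2 (adjusted p = 0.235).

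The steps differed in size. From day 1 to day 3, 6 members were higher and 2 lower in each genotype, against 19.7% of all genes in WT and 26.7% in KO. Fitting only the groups compared reversed that order, with 4642 in place of 2797 genes in WT and 1659 in place of 3790 in KO. The WT count includes Igf2r (0.43 log2, adjusted p = 0.0442), which was lost in 12 of the 23 fits with 1 library left out (adjusted p up to 0.16). The KO count includes Igf1 (1.37 log2, adjusted p = 0.0477), which was lost in 20 of the 23 (adjusted p 0.0507 to 0.322) and fell to 0.79 log2 without KO day 3 replicate 1. Without KO day 1 replicate 2 the KO count was 9, Igfbp6 passing as well (-0.37 log2, adjusted p = 0.00698). The largest in the main fit were Igf2, by 4.52 ± 0.367 log2 in WT and 5.62 ± 0.265 in KO, and H19, by 2.05 ± 0.0971 and 2.04 ± 0.0969. On log2(TPM + 1) the Igf2 step was 1.53 in WT and 3.19 in KO, so in WT it was then smaller than that of H19. Igfbp5 fell on this step, by 0.81 ± 0.128 log2 in WT and 0.49 ± 0.128 in KO. From day 3 to day 6, 1 member was higher (Igfbp4, 0.52 ± 0.109 log2) and 1 lower (Igfbp2, -0.40 ± 0.117) in WT, where 9.79% of all genes passed. That all-gene count of 1389 was 812 and 778 without WT day 3 replicate 1 and 2, 762 without WT day 6 replicate 1 and 2271 without KO day 1 replicate 2. In KO 2 were higher (Igf2, 0.88 ± 0.165, and Igf2r, 0.42 ± 0.143) and 2 lower (Igfbp2, -0.99 ± 0.118, and Igfbp5, -0.35 ± 0.127), where 41.3% passed. The Igfbp5 call was lost with RLE scaling (adjusted p = 0.0655), DESeq2 (0.0562), a mean count of at least 50 (0.0922), log2(TPM + 1) and log2(TPM + 0.1) (0.132 and 0.133), and without any KO day 3 library or KO day 6 replicate 2 or 3 (0.0583 to 0.152). The Igf2r call was lost without KO day 3 replicate 3 or KO day 6 replicate 1 (adjusted p 0.136 each), on log2(TPM + 1) (0.0691) and on log2(TPM + 0.1) (0.0782), and the Igf2 call on log2(TPM + 0.1) (0.051). These counts move when 1 library is left out: without any WT day 3 library 1 of the 2 WT members passed, Igfbp2 in WT also did not pass without WT day 6 replicate 1 or 3 (adjusted p 0.181 and 0.0937), without WT day 1 replicate 3 or WT day 3 replicate 2 or 3 the WT day 1 to day 3 count was 5 in place of 8, and without KO day 3 replicate 3 the KO day 3 to day 6 count was 2. The change since day 0 differed between genotypes for 3 members at day 1, 4 at day 3 and 5 at day 6, against 3.95%, 10.7% and 13.0% of all genes; without WT day 0 replicate 2 the day 6 count was 3. Those shares rest on single libraries too: the counts over all genes were 560, 1519 and 1839, and 148, 829 and 1184 without WT day 0 replicate 2, or 244, 979 and 1215 without replicate 1. Without KO day 1 replicate 2 they were 2302 and 2844 at day 3 and day 6, and at day 1 the count was 919 without KO day 1 replicate 3 and 289 to 335 without KO day 0 replicate 1 or 2 or WT day 1 replicate 1 or 2.

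**Figure D4:**
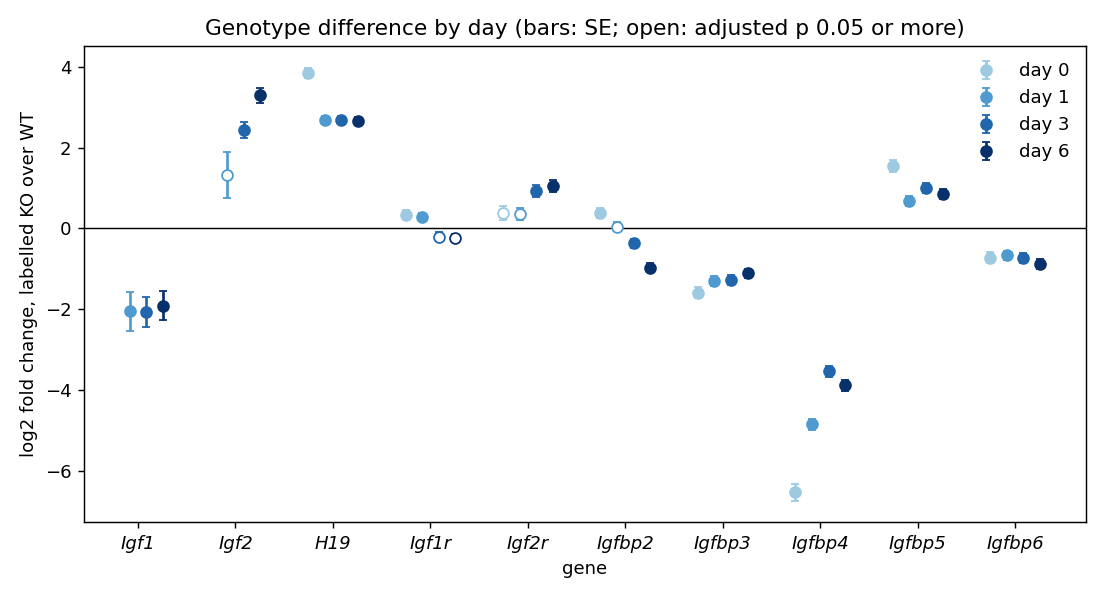
Log2 fold change of KO over WT for each member at day 0, 1, 3 and 6 (light to dark), with bars of 1 SE and open symbols where the adjusted p is 0.05 or more; Igf1 and Igf2 have no day 0 value because both groups were at the floor. H19 lies between 2.66 and 3.86 and Igfbp4 between -6.53 and -3.54, while Igf1r stays between -0.24 and 0.34.

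The members were compared pair by pair by their pattern over the 8 group means of log2 CPM, given as a description since these points share genotype and day. Grouping was not tested. Some members had weaker best matches among the members: Pearson r was 0.178 for Igfbp2, 0.682 for Igf1r, 0.715 for Igfbp5 and 0.753 for Igf1. Igfbp3 was most like Igfbp4 (Pearson r = 0.970), and Igfbp6 was also most like Igfbp4 (r = 0.930). Igf2 was most like its clearance receptor Igf2r (r = 0.944) and least like Igfbp2 (r = -0.868), and H19 was also most like Igf2r (r = 0.904). Among 10890 genes at 5 CPM or more in a group, those most like Igf2 were Srl (r = 0.997), Itgb1bp2 (r = 0.994) and Myl4 (r = 0.993), and 102 genes reached 0.95. For H19 they were Naalad2 (r = 0.981), Trim55 and Asb2 (r = 0.980 each), with 16 genes at 0.95 or more. For Igf1 they were Tmem60 (r = 0.997), Fahd1 (r = 0.994) and Arrdc2 (r = 0.993), with 205 genes at 0.95 or more.

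Of 28 other genes of the pathway, 25 were tested. Between genotypes, 4 were higher and 5 lower in KO at day 0, 6 and 8 at day 1, 5 and 11 at day 3, and 6 and 8 at day 6, where 17.5%, 42.2%, 43.2% and 42.9% of all genes passed in either direction. Igf2bp1, an RNA-binding protein that binds Igf2 mRNA, was higher in KO on every day, by 2.37 ± 0.203, 2.19 ± 0.182, 3.26 ± 0.212 and 2.88 ± 0.211 log2 at day 0, 1, 3 and 6. Pappa, the protease that cleaves Igfbp4, was lower in KO, with differences of -3.41 ± 0.291 log2 at day 3 and -3.40 ± 0.264 log2 at day 6, when its means were 13.2 CPM in WT and 1.25 CPM in KO. Stc1, an inhibitor of Pappa, was lower in KO at day 1 (-1.65 ± 0.207 log2). Adam12, another protease that cleaves binding proteins, was lower at day 3 (-1.18 ± 0.138 log2).

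Among receptors and signalling genes, Grb14, an adaptor that inhibits insulin receptor signalling, was lower in KO, with differences of -1.19 ± 0.195 log2 at day 0 and -1.41 ± 0.180 log2 at day 1. Foxo1, a transcription factor held out of the nucleus by Akt, was lower too, with differences of -1.09 ± 0.107 and -1.002 ± 0.0968 log2 on the same days. Akt2, a kinase downstream of Igf1r, was 1.06 ± 0.0890 log2 higher in KO at day 6, and the growth hormone receptor Ghr was lower (-1.03 ± 0.0865 log2). From day 0 to day 6, 13 of the 25 rose and 3 fell in WT, where 63.6% of all genes passed, led by Ghr (2.07 ± 0.105 log2), the protease Htra1 (1.78 ± 0.106), the adaptor Irs2 (1.499 ± 0.168) and Foxo3 (1.15 ± 0.197). In KO 15 rose and 5 fell, where 70.0% of all genes passed, led by Pappa (-2.62 ± 0.271 log2), Stc1 (2.32 ± 0.251), Foxo1 (1.71 ± 0.0974) and Igfbp7 (1.57 ± 0.131). Each value named here had an adjusted p under 0.05 in edgeR's test.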

How the data were processed

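The authors deposited a table of expected counts per gene and a table of TPM (scaled for gene length and library size) for poly(A) RNA of 23 libraries. The submitters' processing notes name Bowtie2, RSEM and the mm10 genome; versions, annotation and strand use are not given in the sources used here. Expected counts were rounded to whole numbers. Libraries were grouped by their names. Genes were kept by edgeR's filterByExpr (14187 of 32793) and tested with edgeR 4.0.16 (R 4.3.3) using TMM scaling and the quasi-likelihood F-test in 1 model of 8 group means. Benjamini-Hochberg adjustment ran over every gene tested, with a threshold of 0.05. The SE is the log2 fold change over the square root of F. CPM are these counts scaled to library size without gene length. Ratios within a library were compared by two-sided exact permutation tests, 10 in all, with a smallest adjusted p of 0.167. The members and lists were chosen with earlier results of these data known. All members are named; pathway genes are named at an adjusted p under 0.05, an absolute log2 fold change of at least 1 and 5 CPM in a group, up to 4 per contrast. On simulated counts for KO versus WT at day 3 (14187 genes, 200 of them changed), 94% of 4-fold and 87% of 2-fold changes were recovered and 8.59% of calls were false. Alternatives were RLE scaling, library size alone, no filter or a mean count of 50, DESeq2 1.42.0, limma 3.58.1 on log2(TPM + 1) and log2(TPM + 0.1), only the groups compared, a replicate block, a threshold of 0.01 and each library left out. Same-numbered libraries did not deviate together (correlations -0.240 to 0.116), so the numbers were not taken as pairs.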

Additional observations from a re-analysis of the deposited data

Results flagged for a closer look

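The change since day 0 differed between genotypes by an interaction term (edgeR, adjusted p under 0.05) for 5 members. Negative values mean a smaller rise or a larger fall in the libraries labelled KO. For H19 the difference was -1.16 log2 at day 1, -1.17 at day 3 and -1.20 at day 6. For Igfbp4 it was 1.68, 3.00 and 2.65 log2 on those days, but 0.22, 1.27 and 0.93 on log2(TPM + 1), where day 1 did not pass (adjusted p = 0.609). For Igfbp2 it was -0.75 log2 at day 3 and -1.35 at day 6. For Igfbp5 it was -0.86 log2 at day 1 and -0.69 at day 6; without WT day 0 replicate 2 these were -0.67 and -0.51 and did not pass (adjusted p 0.152 and 0.175), and the day 6 value did not pass without KO day 6 replicate 3 (-0.61, adjusted p = 0.0541). The day 1 value did not pass on log2(TPM + 1) or log2(TPM + 0.1) (adjusted p 0.0643 and 0.0696). The Igfbp5 day 3 value of -0.54 did not pass (adjusted p = 0.0794), but passed in 12 of 33 alternatives, among them RLE scaling (0.0498), DESeq2 (0.0257) and no filter (0.0121). For Igf1r it was -0.54 log2 at day 3 and -0.58 at day 6. The Igf1r day 3 value did not pass without WT day 0 replicate 1 or 2 or replicate 3 of WT or KO day 3 (adjusted p 0.0549 to 0.108), nor the day 6 value without WT day 0 replicate 2 (adjusted p = 0.0633). All rest on the same 2 WT day 0 libraries. Igf1 and Igf2 have no such value, because day 0 was at the floor.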

How the results depend on the processing

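Of 162 member differences, 115 passed the test and none of these changed sign under any alternative that tested them. Of the 115, 92 passed under every alternative that tested them and 23 were lost in at least 1. Not every alternative tested every gene, as Igf1 fell below the filter of a mean count of at least 50. Of the 47 that did not pass, 22 passed in at least 1 and 13 changed sign. Most of those sign changes were near 0. The furthest were Igf2 in WT from day 3 to day 6, at -0.189 log2 without WT day 3 replicate 1, and the Igf2r interaction at day 1, at 0.12 without KO day 1 replicate 1. Igf1r in KO from day 0 to day 3 was 0.0414 log2 with library size alone, 0.0692 on log2(TPM + 1) and 0.0768 on log2(TPM + 0.1); the Igf2r interaction at day 1 was 0.00295 with library size alone and 0.0247 on log2(TPM + 1). With a mean count of at least 50, Igfbp2 between genotypes at day 1 was -0.000514 and Igfbp6 in KO from day 3 to day 6 was 0.00655. On both TPM scales Igfbp2 was 0.0199 in WT from day 0 to day 3 and 0.0413 in KO from day 0 to day 1. On CPM the summed binding proteins differed by 0.303 at day 3 and 0.0432 at day 6.

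Leaving out 1 library at a time, these values ranged from -0.11 to 0.0588 for Igf1r in KO from day 0 to day 3, -0.13 to 0.000228 for the Igf1r interaction at day 1, -0.18 to 0.12 for the Igf2r interaction at day 1, -0.0382 to 0.18 for Igfbp2 between genotypes at day 1, and -0.21 to 0.0343 for Igfbp2 in KO from day 0 to day 1. The interaction for Igfbp6 ranged from -0.0574 to 0.17 at day 1 and -0.11 to 0.0866 at day 3. From day 3 to day 6 the ranges were -0.0372 to 0.11 (H19, KO), -0.00905 to 0.11 (H19, WT), -0.19 to 0.34 (Igf2, WT), -0.16 to 0.0302 (Igfbp6, KO) and -0.0675 to 0.18 (Igfbp6, WT). The cause was not tested.

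Members passing for KO day 6 versus day 3 numbered 4, 2 on log2(TPM + 1), 1 on log2(TPM + 0.1), 2 at a threshold of 0.01, and 2 to 4 with 1 library left out (2 without KO day 3 replicate 3). For WT day 3 versus day 1 they numbered 8, 5 at a threshold of 0.01, and 5 to 8 with 1 library left out (5 without WT day 1 replicate 3 or WT day 3 replicate 2 or 3). For WT day 6 versus day 3 they numbered 2, 1 at a threshold of 0.01, and 1 to 3 with 1 library left out (1 without any WT day 3 library). The interaction numbered 3 at day 1 and 1 on log2(TPM + 1), and 5 at day 6, 3 at a threshold of 0.01 and 3 to 6 with 1 library left out.

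With the replicate block, 4 calls were lost: Igfbp2 between genotypes at day 0 (0.36 log2, adjusted p = 0.0799), Igfbp6 in WT from day 0 to day 6 (0.33, 0.056), Igf2r in WT from day 1 to day 3 (0.43, 0.0571) and Igf1 in KO from day 1 to day 3 (1.35, 0.0591). Over all genes, fitting only the groups compared gave 3607 against 5981 calls between genotypes at day 1, 4642 against 2797 in WT and 1659 against 3790 in KO from day 1 to day 3, and 239 against 560 and 2613 against 1519 for the interaction at day 1 and day 3. The TPM scales moved the median of all genes by up to 0.16 log2 (WT, day 3 versus day 0, log2(TPM + 0.1), from 0.02 to 0.18) and the share of calls that were higher in KO at day 3 from 55.5% to 34.3%. At 0 to 13 reads per library, depth limits Igf1 and Igf2 at day 0 and Igfbp4 in KO at day 0. The same holds for Igf2 at day 1, with 4, 4 and 2 reads in WT and 4, 11 and 10 in KO. It also holds for Igf1 in KO at day 1 (5, 12 and 5 reads) and in KO day 3 replicate 3 (6 reads).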
